A study of Homo sapiens with 12 samples.

Results

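Heme is made in a chain of enzyme steps that starts and ends in the mitochondrion, and red cell precursors run the chain at a high rate. The genes described here encode 8 enzymes of the chain (ALAS1, ALAS2, ALAD, UROS, UROD, CPOX, PPOX and FECH) and SLC25A37, the carrier that brings iron into the mitochondrion of erythroid cells. Every region of the 6 deposited lists that touched the body of one of these 9 genes, or the 10 kb to either side of it, was taken (GENCODE 44 annotation, hg38). This gave 100 of the 158028 regions in the lists, 35 of 63442 for the histone variant H2A.Z and 65 of 94586 for its acetylated form H2A.Zac. The enzyme of the third step was not analysed here.

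The study asked what TRRAP contributes to the TIP60 complex, in which EP400 is the scaffold and TRRAP is the subunit that binds transcription factors. TIP60 exchanges H2A.Z into nucleosomes and acetylates it, and H2A.Z typically flanks the start sites of active genes and sits on distal regulatory elements. All cells were K562, an established human leukemia line with erythroid features, in which endogenous EP400 carried a dTAG on both alleles and was degraded with 500 nM dTAGV-1 for 24 h. One line expressed WT EP400 from the AAVS1 safe harbor locus, and the other expressed EP400 without the SANT and HD domains that bind TRRAP (ΔTRRAP). Each line was 1 clone, so the domain deletion and other differences between clones cannot be told apart. Each had 2 replicates of input, H2A.Z ChIP-seq and H2A.Zac ChIP-seq, 12 libraries in all.

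The lists assign each region to 1 of 3 classes. A region is called lost where the signal was higher in WT, gained where it was higher in ΔTRRAP, and unchanged where the comparison of merged replicates stayed under a log10 likelihood ratio of 3. That ratio depends on depth and on the width of a region besides the change itself, and it should not be read as a fold. The lists hold no value per replicate and no read depth, so the spread between replicates is unknown and no test between the lines was made.

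Sequences of 4 promoters and 1 lost region downstream of ALAS1 are printed here because the sections on ALAS1, ALAS2, UROD, CPOX and FECH return to them. The promoters run from 250 bases before to 50 bases after the RefSeq start (GRCh38.p14), 5′ to 3′ on the strand of the gene. Capitals mark GATAA, the core of the site bound by GATA factors, and GGGCGG, the GC box bound by SP and KLF factors, each on either strand. ALAS2 (chrX:55030928-55031227, minus strand) is shown as the erythroid gene with no listed region at its start.
ALAS2 promoter: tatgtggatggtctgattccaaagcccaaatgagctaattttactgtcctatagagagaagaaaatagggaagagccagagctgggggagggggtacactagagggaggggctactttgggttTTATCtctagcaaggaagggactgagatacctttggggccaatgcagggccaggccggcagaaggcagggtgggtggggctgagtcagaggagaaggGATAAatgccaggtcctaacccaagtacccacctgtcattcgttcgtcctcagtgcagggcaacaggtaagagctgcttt
UROD (chr1:45012004-45012303, plus strand) is shown because H2A.Zac was gained over its start site.
UROD promoter: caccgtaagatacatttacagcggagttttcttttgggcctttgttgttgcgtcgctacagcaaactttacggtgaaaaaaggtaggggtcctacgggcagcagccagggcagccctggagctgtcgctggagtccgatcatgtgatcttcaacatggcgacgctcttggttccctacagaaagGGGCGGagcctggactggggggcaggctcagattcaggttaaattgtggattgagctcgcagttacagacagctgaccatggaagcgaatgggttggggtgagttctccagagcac
CPOX (chr3:98593562-98593861, minus strand) is shown because a gained H2A.Zac region reaches into the upstream end of this window.
CPOX promoter: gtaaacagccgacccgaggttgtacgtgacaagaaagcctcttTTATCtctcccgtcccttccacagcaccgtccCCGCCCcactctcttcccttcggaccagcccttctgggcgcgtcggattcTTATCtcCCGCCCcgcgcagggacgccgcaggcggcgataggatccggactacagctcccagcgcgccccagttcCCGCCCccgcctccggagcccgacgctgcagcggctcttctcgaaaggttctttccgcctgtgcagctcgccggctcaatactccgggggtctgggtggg
FECH (chr18:57586653-57586952, minus strand) is shown because H2A.Z, but not H2A.Zac, was listed as lost over its start site.
FECH promoter: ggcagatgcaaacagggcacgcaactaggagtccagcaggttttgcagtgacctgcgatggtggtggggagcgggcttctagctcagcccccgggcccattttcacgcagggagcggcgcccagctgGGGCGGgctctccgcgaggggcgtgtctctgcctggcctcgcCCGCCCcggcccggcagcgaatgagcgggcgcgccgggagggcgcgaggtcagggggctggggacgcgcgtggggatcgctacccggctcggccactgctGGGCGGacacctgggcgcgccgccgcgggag
The central 300 bases of the wider lost H2A.Z region downstream of ALAS1 (chr3:52219196-52219495, plus strand, hg38) are shown because both marks were lost there.
ALAS1 downstream lost region, centre: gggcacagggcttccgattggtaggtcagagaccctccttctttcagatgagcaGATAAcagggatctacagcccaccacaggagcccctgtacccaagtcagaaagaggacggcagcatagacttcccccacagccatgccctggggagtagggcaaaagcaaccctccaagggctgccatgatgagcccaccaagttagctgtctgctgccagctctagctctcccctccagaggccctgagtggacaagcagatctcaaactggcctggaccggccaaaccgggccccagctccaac

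Over the 9 genes 14 of 18 gained H2A.Zac regions lay within 1 kb of an annotated start site of any transcript, against 58.6% of gained regions in the windows of all protein-coding genes and 47.5% over the whole series. Of the 11 lost ones 9 did not, against 61.0% in those windows and 70.8% over the whole series. Of the 14, 7 were at the canonical start of a heme gene, 6 only at the start of another gene and 1 at alternative UROS starts. The 7 at a canonical start were 38.9% of the gained regions, near the 35.0% at the own start over the windows of all genes, and 1 of the 11 lost regions was there (9.09%, against 16.9%). The gained regions made up 27.7% of the 65 H2A.Zac regions, the lost ones 16.9% and the 36 unchanged ones 55.4%. Over the whole series the gained class held 26.3% of H2A.Zac regions and the lost class 25.9%. Gains near start sites were spread over several genes, whereas 9 of the 11 lost regions lay in the ALAS1 and PPOX windows.

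H2A.Z itself showed few gains. The gained class held 2 of the 35 H2A.Z regions (5.71%), against 14.1% over the whole series. The lost class held 8 (22.9%), against 19.8%, and the unchanged class held 25 (71.4%). The ALAS1 and PPOX windows held 6 of the 8 lost regions, so the lost H2A.Z count rests mainly on 2 loci. The count of gained H2A.Z regions was 7 with 50 kb flanks, 1 without ALAD, 1 without UROS and 0 among regions of at least 500 bp.

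**Figure D1:**
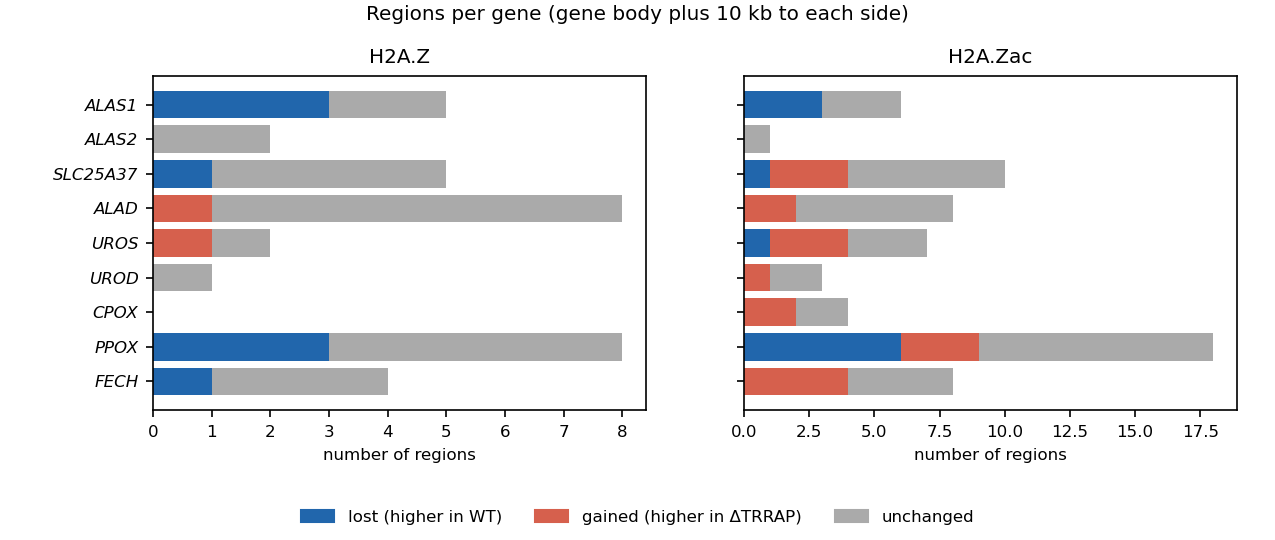
Number of H2A.Z (left) and H2A.Zac (right) regions in the window of each gene (gene body plus 10 kb to each side), with lost regions in blue, gained regions in red and unchanged regions in grey. PPOX has the most regions, 26 in all, and ALAS2 has 3, all unchanged.

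**Figure D2:**
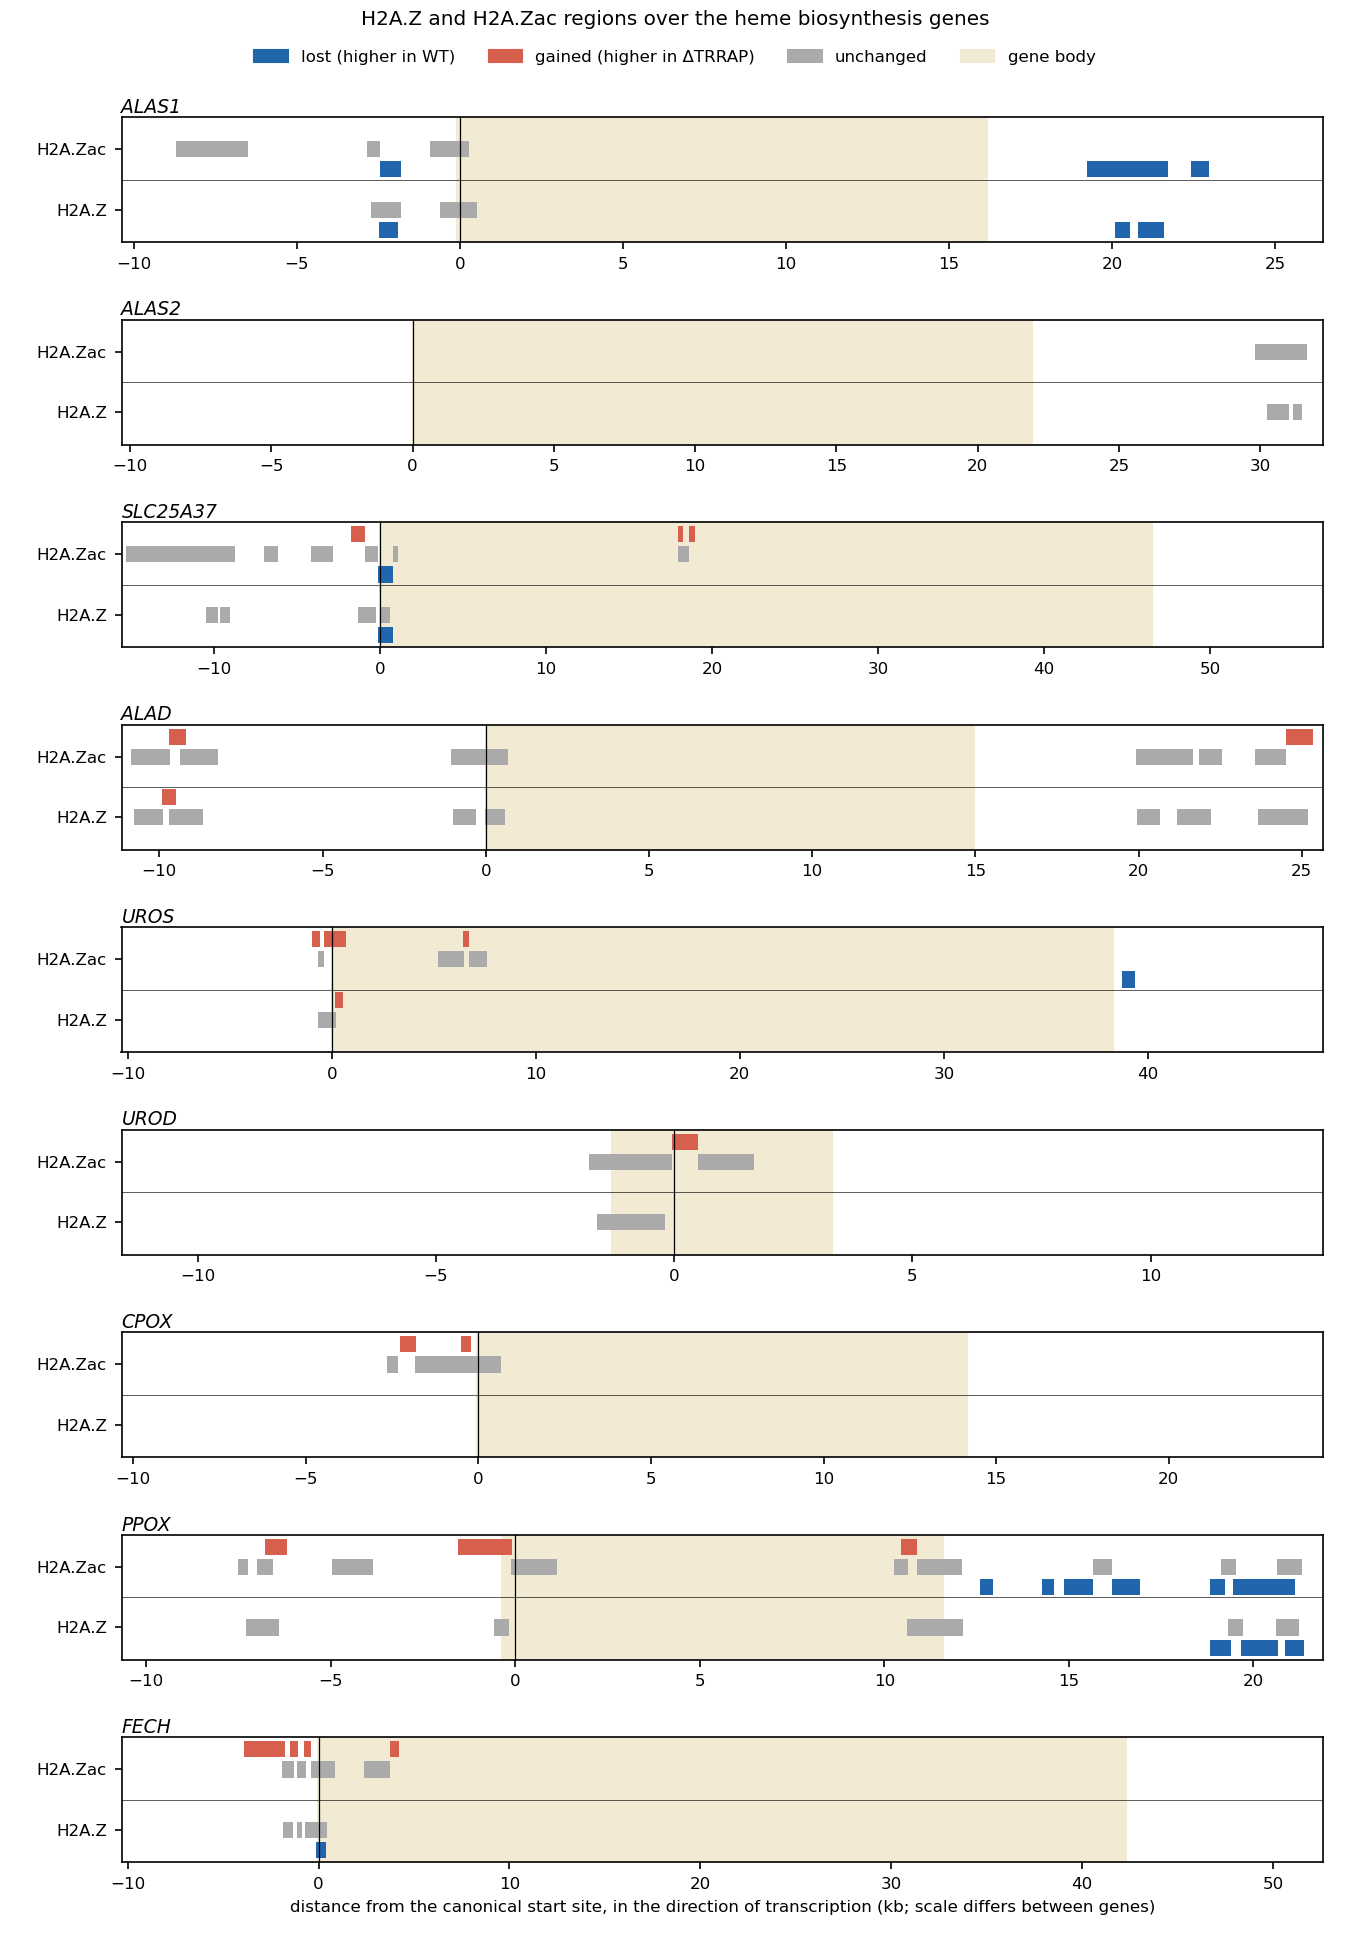
Position of each of the 100 regions in kb from the canonical start site (vertical line) in the direction of transcription, with 1 panel per gene and the gene body shaded; within each mark the gained (red), unchanged (grey) and lost (blue) regions are drawn on separate levels. Gained H2A.Zac lies at or just upstream of the start site in SLC25A37, UROS, UROD, CPOX, PPOX and FECH, while lost regions form clusters downstream of ALAS1 and PPOX.

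ALAS1 encodes the ALA synthase of all tissues, which makes 5-aminolevulinate from glycine and succinyl-CoA in the rate-limiting step of the chain (ENSG00000023330, chromosome 3, 52198086 to 52214327, plus strand). Both marks were unchanged over its start site, with an H2A.Zac region of 1184 bp and an H2A.Z region of 1123 bp that reach into exon 1 and intron 1. All 6 changed regions of its window were lost, and all lay in the flanks.

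Upstream of ALAS1, both marks were lost at the same place. A lost H2A.Zac region of 664 bp ended 1793 bp before the start site, with a log10 likelihood ratio of 8.61. The lost H2A.Z region beneath it had 586 bp and a ratio of 4.0, and it also lay wholly inside an unchanged H2A.Z region of 904 bp. The H2A.Z class at that place is therefore ambiguous in the lists, whereas the H2A.Zac class is not.

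Downstream of ALAS1 the loss was broader. A lost H2A.Zac region of 2479 bp with a ratio of 12.7 began 3.07 kb past the end of the gene and covered both lost H2A.Z regions of 474 and 801 bp. These H2A.Z regions had ratios of 6.94 and 4.96. A further lost H2A.Zac region of 544 bp, with no H2A.Z region on it, had a ratio of 19.5, the highest of the changed regions over the 9 genes. The only annotated start site within 1 kb of this cluster is that of ENSG00000280003, a transcript still awaiting experimental evidence. The ALAS1 window also holds parts of 2 protein-coding neighbours. Their overlap with the lost regions was not measured, so the cluster cannot be assigned to ALAS1. The printed centre of the 801 bp region holds 1 GATAA, as do at least 1 in 24.6% of lost H2A.Z centres over the whole series. The centres of the other lost H2A.Z regions at ALAS1, PPOX and FECH hold none.

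ALAS2 encodes the ALA synthase of erythroid cells (ENSG00000158578, chromosome X, 55009055 to 55030977, minus strand). No region of either mark was listed in its body, at its start site or in the 10 kb upstream. The 3 regions of its window, 1 of H2A.Zac and 2 of H2A.Z, were unchanged and lay past its far end at the start sites of APEX2 and PFKFB1. Because the lists hold only regions that passed peak calling, they do not show how much signal lay over ALAS2 in either line. The nearest region outside the window on the upstream side was an unchanged H2A.Zac region 33.8 kb beyond its edge.

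The printed ALAS2 promoter was the poorest in CpG among the 9 promoter entries that were found for 7 of the 9 genes. Its observed to expected CpG ratio was 0.156, whereas the other promoter windows of the members had ratios between 0.616 and 0.989. Its GC content of 52.7% was close to the 54% of UROD. It holds GATAA at base -127 on the opposite strand and at base -30 on the same strand, counted from the start, and no GC box. These matches describe the letters of the window and were not tested for binding.

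SLC25A37 encodes mitoferrin-1 (ENSG00000147454, chromosome 8, 23528956 to 23575463, plus strand), and it was the only one of the 9 genes with both marks lost over the start site. The lost H2A.Zac region had 905 bp and a ratio of 8.09, and the lost H2A.Z region had 894 bp and a ratio of 4.89. Of the lost H2A.Z region, 57.5% also lay in an unchanged H2A.Z region. Upstream, H2A.Zac was gained over 847 bp ending 909 bp before the start site, with a ratio of 8.06. Loss over the start site and gain just before it thus stood side by side, separated by an unchanged H2A.Zac region of 785 bp.

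Within intron 1 of SLC25A37, about 18 kb from the start, a pair of short H2A.Zac regions of 277 and 367 bp was gained, with ratios of 4.11 and 5.79. The shorter of them lay wholly inside an unchanged H2A.Zac region, and neither carried an H2A.Z region. Farther upstream an unchanged H2A.Zac region of 6535 bp, the widest over the 9 genes, crossed the edge of the window.

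ALAD encodes the enzyme of the second step, which joins aminolevulinate molecules into porphobilinogen (ENSG00000148218, chromosome 9, 113386312 to 113401290, minus strand). Its own start site was unchanged in both marks, under an H2A.Zac region of 1760 bp and an H2A.Z region of 615 bp. The 3 changed regions of its window were gains at the start sites of neighbours. At POLE3 and C9orf43 both H2A.Zac (524 bp, ratio 5.24) and H2A.Z (440 bp, ratio 5.16) were gained, and at HDHD3 H2A.Zac was gained over 849 bp with a ratio of 5.65. The ALAD count therefore describes its neighbours and not its own promoter.

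UROS encodes uroporphyrinogen III synthase, which closes the tetrapyrrole ring in the fourth step (ENSG00000188690, chromosome 10, 125784980 to 125823258, minus strand). It was the only one of the 9 genes with both marks gained within 1 kb of its start site. H2A.Zac was gained over 1094 bp that span the start (ratio 6.49), and H2A.Z was gained over 419 bp of exon 1 and intron 1 (ratio 4.58), wholly inside the gained H2A.Zac region. Over the start itself H2A.Z was unchanged, in a region of 894 bp, and H2A.Zac was unchanged over 308 bp ending 368 bp upstream. Another gained H2A.Zac region of 408 bp lay 559 bp upstream, with a ratio of 4.62. BCCIP starts within 1 kb on the other strand, so these gains cannot be assigned to UROS alone.

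Inside UROS, an H2A.Zac region of 275 bp in intron 1 was gained with a ratio of 6.60, at start sites of alternative UROS transcripts. Just past the end of the gene an H2A.Zac region of 658 bp was lost with a ratio of 18.5, and it carried no H2A.Z region. The UROS window thus held the gains at the start site and, at the far end, a lost region with no annotated start site within 1 kb.

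UROD encodes the decarboxylase of the fifth step (ENSG00000126088, chromosome 1, 45010950 to 45015575, plus strand). A gained H2A.Zac region of 541 bp with a ratio of 6.23 spanned its start site and exon 1 and reached into intron 1, and the downstream end of the printed promoter lies in it. Unchanged H2A.Zac regions of 1751 and 1180 bp abutted it on either side. H2A.Z was unchanged over 1419 bp upstream, on the side of HECTD3, and no H2A.Z region lay under the gained H2A.Zac. The gained region is also within 1 kb of a HECTD3 start and cannot be assigned to UROD alone. UROD had no lost region.

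CPOX encodes coproporphyrinogen oxidase, the enzyme of the sixth step (ENSG00000080819, chromosome 3, 98579446 to 98593648, minus strand). It was the only one of the 9 genes with no H2A.Z region. H2A.Zac was unchanged over 2471 bp that include the start site. A gained H2A.Zac region of 290 bp with a ratio of 3.76, the lowest of the gained H2A.Zac regions over the 9 genes, ended 205 bp upstream and lay wholly inside the unchanged one. Another gain of 438 bp lay 1820 bp upstream with a ratio of 6.13.

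The printed CPOX promoter holds GATAA on the opposite strand at bases -207 and -125 and GC boxes at -175, -118 and -50. The match at base -207 straddles the edge of the gained region.

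PPOX encodes protoporphyrinogen oxidase, the enzyme of the seventh step (ENSG00000143224, chromosome 1, 161166056 to 161178013, plus strand). Its window was the busiest, with 26 regions, of which 12 were changed. A gained H2A.Zac region of 1482 bp ended 80 bp before the start site with a ratio of 11.0, the highest of the gained regions over the 9 genes. This region also covers the start of ENSG00000290115, a noncoding transcript on the opposite strand, and comes within 1 kb of a USP21 start, so it cannot be assigned to PPOX alone. H2A.Zac over the start site itself was unchanged over 1243 bp, and H2A.Z beneath the gained region was unchanged over 409 bp. Other H2A.Zac gains lay at the start sites of USP21 (622 bp, ratio 6.96) and B4GALT3 (434 bp, ratio 5.69). B4GALT3 lies within the PPOX body on the opposite strand.

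Past the end of PPOX all changed regions were lost. There were 6 lost H2A.Zac regions with ratios between 3.85 and 10.5 and 3 lost H2A.Z regions with ratios of 5.43, 6.37 and 4.19. The widest, an H2A.Zac region of 1688 bp, covered the lost H2A.Z region of 1004 bp whole. None lay within 1 kb of an annotated start site. For all 6 lost H2A.Zac regions the nearest annotated start was that of B4GALT3, from 1.039 to 7.91 kb away, so they cannot be assigned to PPOX alone. All 3 lost H2A.Z regions overlapped unchanged H2A.Z regions in part, the third of them by 76.1% of its length. The lost H2A.Z regions lie over the body of ADAMTS4, a gene named here after the positions were seen.

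FECH encodes ferrochelatase, which inserts iron into protoporphyrin in the last step (ENSG00000066926, chromosome 18, 57544377 to 57586732, minus strand). At its start site the H2A.Z class is ambiguous in the lists, whereas the H2A.Zac class is not. H2A.Z was lost over 509 bp with a ratio of 4.10, wholly inside an unchanged H2A.Z region of 1156 bp, while H2A.Zac was unchanged over 1257 bp. Upstream, 3 H2A.Zac regions were gained. They lay 397, 1105 and 1738 bp before the start site, had widths of 374, 407 and 2152 bp and ratios of 6.45, 4.63 and 8.88, and alternated with unchanged H2A.Zac regions. The widest of them spans a start of ENSG00000278703, a gene upstream of FECH. Another gained region of 450 bp lay in intron 1 with a ratio of 3.94, bordering an unchanged one.

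FECH had the highest promoter GC content among the members, 74%, with 3 GC boxes in the printed window and no GATAA. The median over the 9 promoter entries of the members, which cover 7 of the 9 genes, was 66.0%, against 58.7% over all 35116 promoters in the table. A GC box was present in 7 of the 9 entries (45% of all promoters), and GATAA in 3 of them (22.7% of all promoters), at ALAS2, CPOX and the second PPOX start. CACGTG, the E-box bound by MYC and MAX, was in none of the 9 entries (7.26% of all promoters). TATAAA was in 1, at ALAS1 (11.5% of all promoters).

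**Figure D3:**
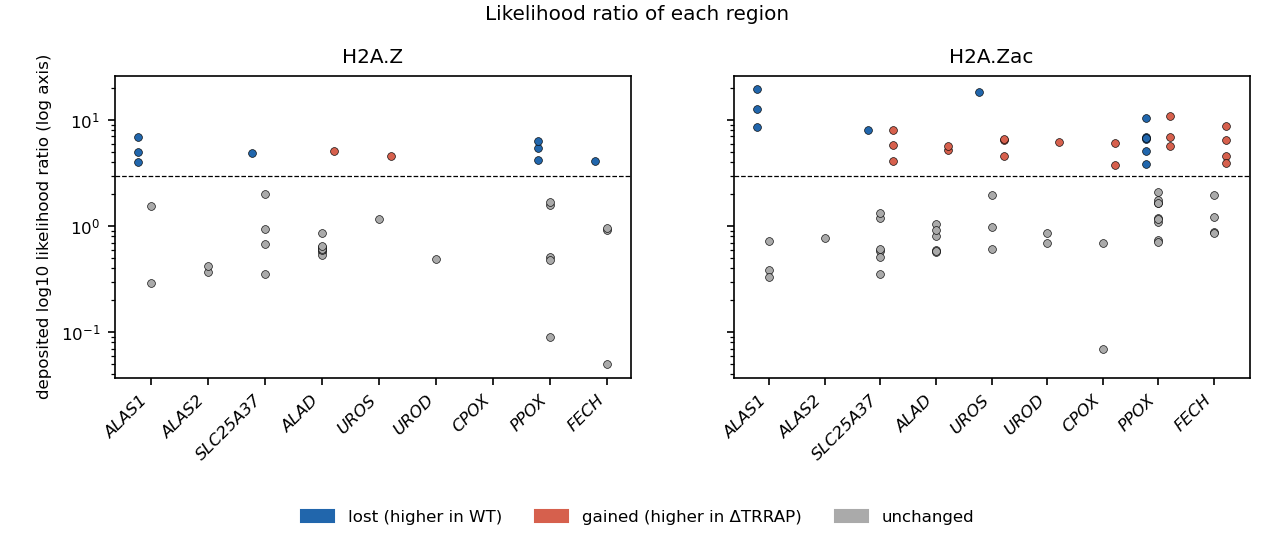
Deposited log10 likelihood ratio (log axis) of each H2A.Z (left) and H2A.Zac (right) region by gene, with lost regions in blue, unchanged regions in grey and gained regions in red; the dashed line marks 3, the bound between changed and unchanged. The highest ratios belong to lost H2A.Zac regions, 19.5 at ALAS1 and 18.5 at UROS, and the gained H2A.Zac regions reach 11.0 at PPOX.

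Counted by gene, 8 of the 9 had at least 1 changed region of either mark, against 78.7% of all protein-coding genes and 91.7% of those with any region in the window. Lost and gained regions occurred together in 4 windows (SLC25A37, UROS, PPOX and FECH), against 35.9% of all genes and 41.8% of those with any region, so both counts were near the background. ALAD, UROD and CPOX had only gains, and ALAS1 had only losses. H2A.Zac was gained in 7 of 9 windows, against 59.6% of the 19970 protein-coding genes and 70.9% of those with any H2A.Zac region. It was lost in 4 of 9, against 50% and 59.5%. H2A.Z was lost in 4 of 9 windows, against 27.3% of all genes, and gained in 2 of 9, against 26.6%. With 9 genes these shares are counts of single loci, and nothing particular to heme synthesis is read from them.

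Within 1 kb of the canonical start site, 6 of 9 genes had a gained H2A.Zac region (SLC25A37, UROS, UROD, CPOX, PPOX and FECH), against 36.8% of all genes. A lost H2A.Zac region was there in 1 of 9, SLC25A37, against 16.7%. The start site itself was spanned by a gained H2A.Zac region in 2 genes, UROS and UROD, and by an unchanged one in 5. An unchanged H2A.Zac region lay within 1 kb in 8 of 9, against 58.1% of all genes, so most of these gains stood beside unchanged H2A.Zac. For H2A.Z, 2 of 9 had a lost region (SLC25A37 and FECH), against 6.55%, and 1 of 9, UROS, had a gained region, against 13.9%. Both lost H2A.Z regions also lay in part or whole in an unchanged H2A.Z region. Part of the gap in gained H2A.Zac goes with how many genes carry the mark at all. Among genes with any H2A.Zac region at the start site the share with a gained one was 6 of 8 (75.0%) for the members and 57.3% for all protein-coding genes.

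**Figure D4:**
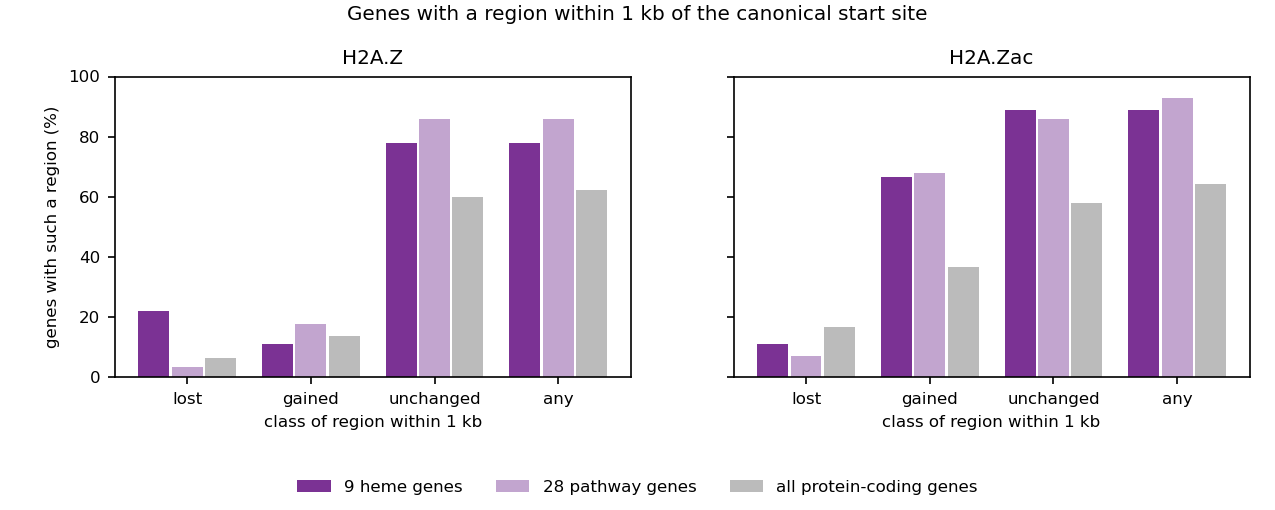
Percent of genes with a lost, gained, unchanged or any H2A.Z (left) or H2A.Zac (right) region within 1 kb of the canonical start site, for the 9 heme genes, the 28 pathway genes and all 19970 protein-coding genes. Gained H2A.Zac was present at 6 of 9 heme genes and 19 of 28 pathway genes, against 36.8% of all genes.

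The split by position was seen in the regions as well. Of the 29 changed H2A.Zac regions, 18 were gained (62.1%, Wilson 95% interval 44 to 77.3), against 50.4% over the whole series. The majority did not hold for regions of at least 500 bp (50% gained) and turned to losses at a ratio of at least 10 (20% gained, 1 of 5). Where a start site of any gene lay within 1 kb, 14 of 16 were gained (87.5%, interval 64.0 to 96.5), against 62.3% over the whole series. Where none did, 4 of 13 were gained (30.8%, interval 12.7 to 57.6), against 42.9%. The whole series therefore had the same split with a smaller distance between the shares. The intervals cover counting error only, and neighbouring regions of 1 peak are not independent of each other.

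For H2A.Z the changed regions were too few to place. Of 10 changed regions 2 were gained (20.0%, interval 5.67 to 51.0), against 41.6% over the whole series. The share was 38.9% with 50 kb flanks and 11.1% without ALAD or without UROS. Both gains were at start sites of any gene, where they made up 2 of 6 changed regions (33.3%), against 57.1% over the whole series. The 4 changed regions away from start sites were all lost, and over the whole series 33.7% of such regions were gained.

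Most lost and gained H2A.Z regions lay on H2A.Zac of the same class, whereas most changed H2A.Zac regions did not lie on H2A.Z of their class. Of the 8 lost H2A.Z regions, 7 had at least 25% of their length on a lost H2A.Zac region (65.9% over the whole series), and the exception was at the FECH start site. Of the 11 lost H2A.Zac regions, 5 lay on lost H2A.Z by the same measure (28.6% over the whole series) and 6 on no H2A.Z region of any class (45.2%). Both gained H2A.Z regions lay on gained H2A.Zac. Of the 18 gained H2A.Zac regions, 2 lay on gained H2A.Z (18.7% over the whole series), 10 on unchanged H2A.Z (45.9%) and 8 on none (43.1%). The 2 on gained H2A.Z, at POLE3 and UROS, are also among the 10. No changed region of either mark lay on the opposite change of the other, which was also rare over the whole series, at 0.0781% or less in each class. Both marks come from the same lines, and a ratio of the marks within a region was not computed, since the lists hold no signal.

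Changed and unchanged stretches were often parts of 1 larger enriched block. When regions of a mark no more than 150 bp apart were joined, the 65 H2A.Zac regions formed 32 blocks, of which 16 held more than 1 class (37.3% of blocks over the whole series were mixed). The 35 H2A.Z regions formed 25 blocks, of which 6 were mixed (19.5% over the whole series). Gained H2A.Zac regions were short, with a median of 444 bp against 664 bp for all gained regions of the series. Unchanged H2A.Zac regions were wide, with a median of 1029.5 bp against 735 bp. Of the 18 gained H2A.Zac regions, 14 overlapped an H2A.Zac region of another class in part or whole (55.7% of gained regions over the whole series), and the one over the UROD start site abutted its neighbours without overlap.

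The windows were dense in both marks. They held 8.95 H2A.Z and 16.6 H2A.Zac regions per 100 kb, against 3.42 and 5.45 over the windows of all protein-coding genes. The median window was shorter, at 36.2 kb against 47.5 kb. By count the gap was smaller, with a median of 4 H2A.Z and 7 H2A.Zac regions per window, against 2 and 4. The chromosomal surroundings, counted over the fixed 5 Mb bin that holds each gene, without its own window, had gained shares of changed H2A.Zac between 40.7% (CPOX) and 63.3% (UROS). The PPOX bin, with 91 gained of 184 changed H2A.Zac regions, and the ALAS1 bin, with 62 of 115, were near balance. ALAS2 and UROD lie at the edge of their bins, which cover mainly one side of them. At the window edges 6 regions crossed the 10 kb bound, 4 at ALAD and 2 at SLC25A37, and all were counted. The nearest region left out was an unchanged H2A.Zac region 0.412 kb beyond the PPOX window, with a ratio of 1.24.

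Genes around heme synthesis were looked at in a list of 28, in groups for mitochondrial transport and control of ALA synthase, iron-sulfur cluster assembly, iron uptake, storage and sensing, and heme export, recycling and breakdown. They were chosen by function with earlier results of these data known, so the list is not an independent set. H2A.Zac was gained within 1 kb of the start site in 19 of the 28, and lost there in 2, TFRC and HMOX2, against 36.8% and 16.7% of all genes. Among genes with any H2A.Zac region there, the gained share was 73.1% for the list and 57.3% for all genes. By group the gains were at 4 of 7 transport and control genes, 3 of 4 iron-sulfur genes, 8 of 10 iron genes and 4 of 7 heme export and breakdown genes. H2A.Z was gained at 5 start sites (SLC25A28, ISCU, IREB2, PCBP1 and FLVCR1) and lost at 1, FAM210B, against 13.9% and 6.55% of all genes. Among genes with any H2A.Z region at the start site the gained share was 20.8%, near the 22.3% of all genes.

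The gained H2A.Zac regions at the start sites of the list included those of storage and sensing genes. FTH1, the ferritin heavy chain, had a gained region of 1894 bp with a ratio of 11.7. IREB2, an iron-responsive RNA-binding protein, had one of 775 bp with a ratio of 10.7. GLRX5, which passes on iron-sulfur clusters, had one of 358 bp with a ratio of 10.7. At FAM210B, a mitochondrial protein of erythroid iron handling, gained H2A.Zac of 494 bp upstream stood beside lost H2A.Z of 257 bp in the gene.

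Of the 30 lost H2A.Zac regions of the list, 2 lay within 1 kb of the canonical start of the listed gene, against 16.9% over the windows of all protein-coding genes, and of the 55 gained ones 24 did (43.6%, against 35.0%). Distance to the starts of other genes was not measured for the list. In the windows, H2A.Zac was lost in 17 of 28 genes (60.7%, against 59.5% of all genes with any H2A.Zac region) and gained in 26 (92.9%, against 70.9%). H2A.Z was lost in 9 of the 26 windows that held any H2A.Z region (34.6%, against 33.4%) and gained in 10 (38.5%, against 32.6%), so both lost counts were near the background. TFRC, the transferrin receptor that takes up iron, had 5 lost H2A.Zac regions with ratios up to 27.9 and a gained one of 599 bp at its start site. SLC48A1, a heme transporter, had 4 lost H2A.Zac regions with ratios between 11.9 and 17.5. They lay upstream of its canonical start but within its annotated gene body. BLVRB, a biliverdin reductase, had a lost H2A.Zac region of 1663 bp with a ratio of 25.9 and, within it, lost H2A.Z of 868 bp with a ratio of 11.7. HMOX1, the inducible heme oxygenase, had no region of either mark within 1 kb of its start site.

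**Figure D5:**
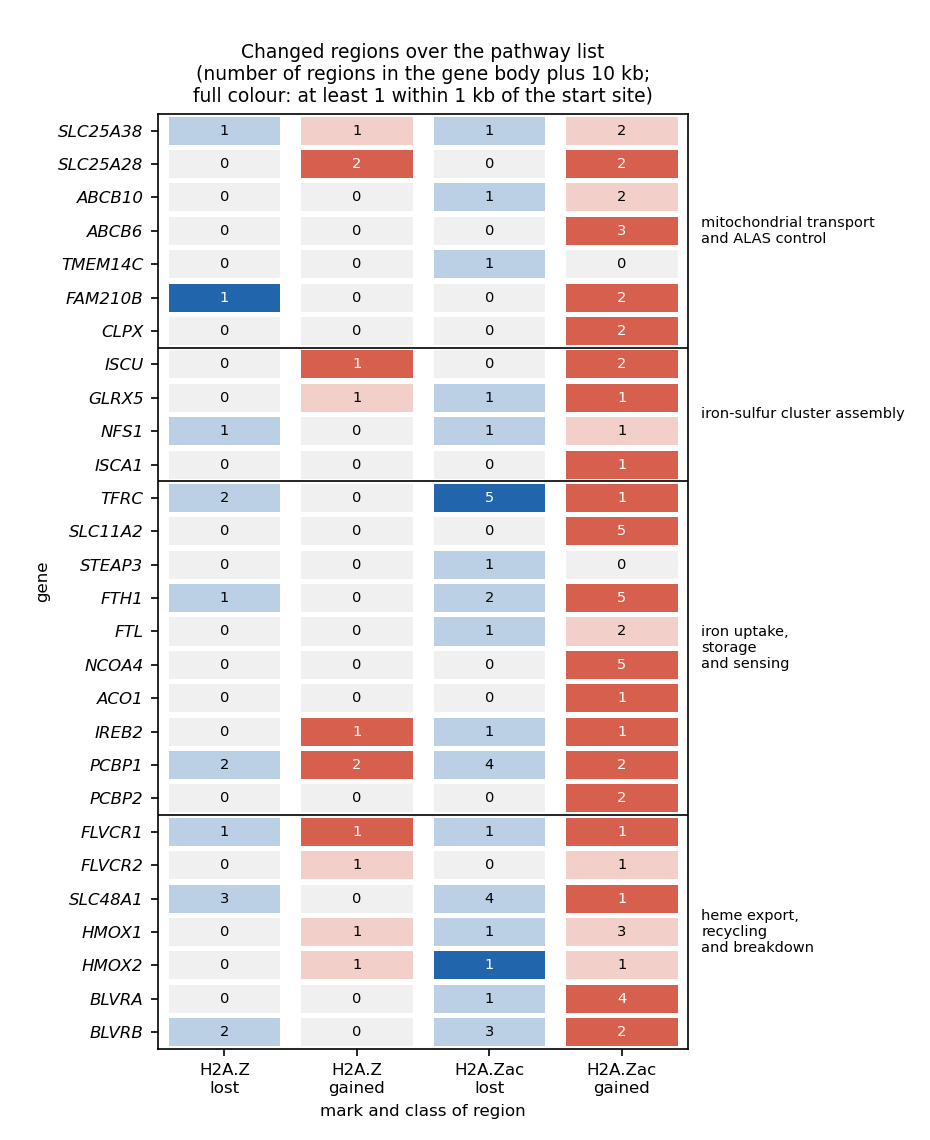
Number of lost and gained H2A.Z and H2A.Zac regions (columns) in the gene body plus 10 kb of each of 28 genes around heme synthesis (rows, grouped by function); full colour marks genes with such a region within 1 kb of the start site. The gained H2A.Zac column is in full colour for 19 genes and the lost H2A.Zac column for 2.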

How the data were processed

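ChIP-seq was analysed from the authors' 6 region lists (lost, gained and unchanged for each mark). Per the study's methods and the submitters' processing notes, reads were aligned to hg38 with Bowtie2 2.4.5, peaks were called with MACS2 2.2.7.1, replicates were merged, the lines were scaled to equal effective depth and compared with bdgdiff, and regions were filtered by reproducibility. The deposited score is the log10 likelihood ratio of that comparison. Merging hides the spread between replicates, and scaling sets the zero between gained and lost, so a global change of a mark cannot be seen. Depth and cell identity could not be checked from the lists.

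Here regions were placed on GENCODE 44 (hg38) with Python 3.11.15, pandas 2.3.3 and scipy 1.17.1, and the interval code was checked against bedtools 2.31.1. Counts by gene used the canonical start site, and counts of regions near a start of any gene used all annotated transcripts (both within 1 kb). Named genes were the 9 members, the 28 genes of the pathway list (1 further gene is not reported here), and genes whose start site lay within 1 kb of a region or that overlapped a member, besides ADAMTS4, named after the positions were seen. The members and lists were chosen with earlier results of these data known. No statistical test across regions or lines was made. Sequences are from RefSeq promoters and hg38, and no sequence of SLC25A37 was read.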

Additional observations from a re-analysis of the deposited data

How the results depend on the processing

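The lists give 1 class per region from merged replicates of 1 clone per line, at unknown depth, so no replicate could be left out. No paired analysis was possible because the lists hold no column per replicate and no result comes from a test. Classes of 1 mark overlap: 6 of 8 lost H2A.Z and 14 of 18 gained H2A.Zac regions touched another class (36.1% and 55.7% over the whole series). Of the values under each alternative, 123 stayed within the margin (1.5 times for counts, the Wilson interval for gained shares, which is wide for H2A.Z) and 42 did not. Part of the 123 could not move. Leaving out a gene with no region of a class changes no count of that class, and the ratio bounds were not applied to unchanged regions. The 123 therefore do not measure how stable the results are. The gained share of changed H2A.Zac regions, 62.1%, was 20.0% at a ratio of 10 or more (4 lost, 1 gained), 50% for regions of at least 500 bp, and 54.4% counted in base pairs. It was 88.9% for gene bodies alone and 78.9% with 2 kb flanks.

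The other counts moved as follows. Lost H2A.Z (8 regions) was 2 in gene bodies alone, 3 with 2 kb flanks, 3 at a ratio of at least 5, 0 at a ratio of at least 10, 5 with regions within 1 kb merged, 5 without ALAS1 and 5 without PPOX. Gained H2A.Z (2 regions) was 1 in gene bodies, 1 with 2 kb flanks, 7 with 50 kb flanks, 1 at a ratio of at least 5, 0 at a ratio of at least 10, 0 among regions of at least 500 bp (a gained share of 0%), 1 without ALAD and 1 without UROS. Unchanged H2A.Z (25) was 8 in gene bodies, 13 with 2 kb, 61 with 50 kb and 16 merged. Lost H2A.Zac (11) was 1 in gene bodies, 4 with 2 kb, 26 with 50 kb, 4 at a ratio of at least 10, 7 merged and 5 without PPOX. Gained H2A.Zac (18) was 8 in gene bodies, 35 with 50 kb, 1 at a ratio of at least 10 and 8 at 500 bp or more. Unchanged H2A.Zac (36) was 14 in gene bodies, 18 with 2 kb and 69 with 50 kb. Genes with lost H2A.Zac at the start site were 1, and 2 within 2 kb. Of the pathway list, genes with lost H2A.Z (9) were 2 with 2 kb flanks and 1 at the start site, with gained H2A.Z (10) 5 at the start site, and with lost H2A.Zac (17) 7 with 2 kb flanks and 2 at the start site. Flank and merging change how many regions are counted by construction.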
